A study of Mus musculus with 6 samples.

Results

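The A1-type reactive genes described here are *Srgn*, *Ggta1*, *Fkbp5*, *Amigo2*, *Fbln5*, *Gbp2* and *Iigp1*. They were found by their symbols in the deposited tables, where all 7 of 7 are listed among 24421 genes, and all 7 passed the filter on low values. The complement and MHC genes of the usual A1 list were left aside, apart from a short count. The tables hold RNA-seq values of astrocytes from the hippocampus of C57BL/6 mice of the genotype *Siglech*dtr/dtr, 2 days after an intraperitoneal injection. Mice of the DT group received diphtheria toxin at 50 µg/kg, and mice of the PBS group received PBS alone. There were 3 PBS and 3 DT libraries, each from the pooled hippocampi of 2 mice. The methods give adult male mice for such work.

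Both groups carry the dtr allele on both chromosomes, so the diphtheria toxin receptor is made where *Siglech* is active, and Siglec-H itself is described by the study as strongly reduced in such homozygotes. Cells were passed over anti-CD11b beads to remove microglia and then caught with beads against ACSA-2, an astrocyte surface antigen. No DT-treated mice without the receptor were analysed here. The 3 pools of a group came from independent experiments. The question that the comparison addresses is which genes differ in astrocytes after the ablation of microglia.

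Reactive astrocytes are astrocytes that change shape and gene expression after injury, infection or inflammation. Sets of genes named A1 and A2 were drawn up from astrocytes after inflammation and after ischemia, and a further set, called pan-reactive, from genes raised in both. Interleukin 1 alpha, TNF and C1q, which microglia can release, are known to induce the A1 set in culture, and many of its genes are also targets of interferon. The 7 genes do unlike work in the cell. *Gbp2* and *Iigp1* encode interferon-inducible GTPases, *Ggta1* a glycosyltransferase, *Srgn* the core protein of a proteoglycan, *Amigo2* an adhesion protein, *Fbln5* a protein of elastic fibres and *Fkbp5* a co-chaperone of steroid receptors.

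Values are given as CPM, reads of a gene scaled to library size, and the libraries held 21704891 to 32933975 reads. In the DT-treated group, 9 of 15 microglia markers passed the test as lower and none as higher, and *Siglech*, the targeted gene, went from 21 to 71 reads per PBS library to 0 in all DT libraries. Astrocyte markers were high in every library, with *Slc1a2* at 36930 ± 1129 CPM after PBS and 38290 ± 2923 CPM after DT (SD, n = 3). The summed level of 15 astrocyte markers lay between 37070 and 42040 TPM, a unit that also divides by transcript length, against 139 to 290 TPM for 15 microglia markers and 723 to 1357 TPM for 13 endothelial markers. Markers of border-associated macrophages, 11 genes, summed to 24.0 to 39.8 TPM after PBS and 72.3 to 93.8 TPM after DT. In such bulk samples, fewer cells of a type and less RNA per cell cannot be told apart.

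A single gene of the 7, *Ggta1*, passed the test for a change after DT. It rose 2.24-fold, while the other 6 genes did not pass the test. Values were taken as log2(CPM + 0.1), genes with a mean of at least 0.5 CPM were tested with limma, two-sided, and p-values were adjusted over all 15137 of them by the method of Benjamini and Hochberg. A gene was called at an adjusted p-value under 0.05. Of the genes tested, 0.713% were called in either direction and 0.555% as higher after DT. The members' count of 1 in 7 stands against those shares.

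Levels per transcript length, in TPM, placed the 7 genes in a range from 2.70 to 46.8 TPM after PBS. *Srgn* was the most abundant with 46.8 ± 8.90 TPM (SD, n = 3), followed by *Gbp2* with 30.6 ± 7.09 TPM. *Ggta1* stood at 18.2 ± 2.13 TPM and *Amigo2* at 15.4 ± 1.02 TPM, and their PBS libraries overlapped. *Iigp1* with 6.62 ± 2.42 TPM, *Fkbp5* with 4.10 ± 0.77 TPM and *Fbln5* with 2.70 ± 0.63 TPM were the lowest. After PBS, *Ggta1* and *Amigo2* were the only neighbours in this order whose libraries overlapped. After DT, the order at the top was *Gbp2* (46.1 ± 9.20 TPM), *Srgn* (43.7 ± 1.74 TPM) and *Ggta1* (41.1 ± 2.37 TPM). Here *Gbp2* overlapped *Srgn*, and *Srgn* overlapped *Ggta1*, so neighbours among these 3 did not differ beyond their spread. *Amigo2* (19.8 ± 2.75 TPM), *Iigp1* (7.40 ± 4.11 TPM), *Fkbp5* (5.14 ± 1.26 TPM) and *Fbln5* (3.01 ± 0.31 TPM) followed, and of these *Iigp1* and *Fkbp5* overlapped. Against the genes tested, *Ggta1* moved from percentile 52.0 to percentile 72.7 of mean CPM and *Gbp2* from 55.3 to 65.5.

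**Figure D1:**
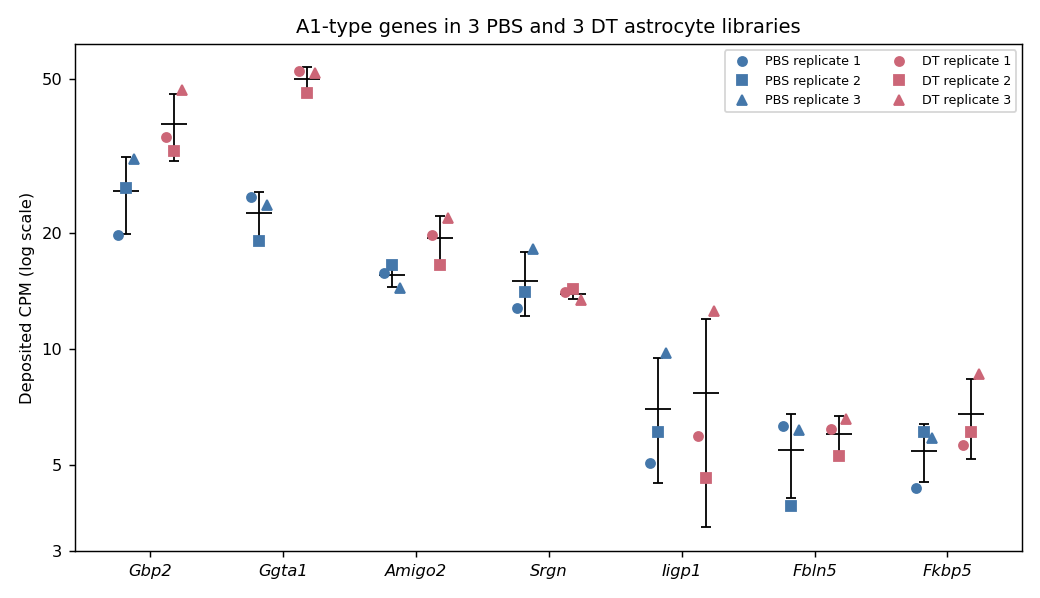
Deposited CPM (log axis) of the 7 genes, ordered by their mean after PBS, in 3 PBS (blue) and 3 DT (red) libraries; symbols give the replicate number, horizontal bars the mean and whiskers the SD. The DT libraries of *Ggta1* (46.0 to 52.6 CPM) lie far above its PBS libraries (19.1 to 24.7 CPM), and the triangles of *Gbp2* and *Iigp1* are the highest points of both groups.

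*Ggta1* encodes the alpha-1,3-galactosyltransferase that builds the alpha-gal epitope on glycans of most mammals, but not of humans. The gene lies on the minus strand of chromosome 2 of mm10, from 35400179 to 35463231. In the PBS libraries it was at 24.7, 19.1 and 23.6 CPM, and in the DT libraries at 52.6, 46.0 and 51.8 CPM. The lowest DT library stood well above the highest PBS library, and the spread within each group was small beside the gap. These values rested on 513 to 1416 reads per library. Group means were 22.4 ± 3.0 CPM for PBS and 50.2 ± 3.61 CPM for DT (SD, n = 3). On the log2 scale the rise was 1.16, with a standard error of 0.11 and a 95% confidence interval of 0.90 to 1.42 (limma, adjusted p = 0.00273). It ranked 24 of all genes by p-value. The difference between DT and PBS libraries of the same number was 1.09, 1.27 and 1.13 on the log2 scale. An exact permutation test of 3 against 3 libraries, two-sided, gave p = 0.1, the smallest that this design allows.

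*Ggta1* kept its call under each of the 18 other settings tried, with adjusted p-values from limma, edgeR or DESeq2 between 5.68e-17 and 0.0349. Of the count models on the recovered reads, DESeq2 and edgeR's exact test called more genes in all than limma (0.713%), and edgeR's quasi-likelihood test slightly fewer. DESeq2 called 2.15% of genes, edgeR's exact test 1.70% and edgeR's quasi-likelihood test 0.694%, and each of them called *Ggta1* and no other of the 7 genes. A short gene model of another type, Gm43761, lies on the same strand within *Ggta1*. How reads over both were assigned is not given in the sources used here. Markers of 3 other cell types had log2 fold changes on the same side of 0 as *Ggta1*. Of border-associated macrophage markers, 8 of 8 tested were above 0 (median 1.42) and 3 of them, *Mrc1*, *Lyve1* and *F13a1*, passed the test. *Ms4a7*, *Clec4n* and *Cd209f*, of the same 11 markers, were each under the filter. Choroid plexus markers were above 0 in 10 of 10 genes (median 1.64), with sums of 476, 2258 and 152 TPM after PBS and 3800, 2654 and 1414 TPM after DT. Ependymal markers were above 0 in 10 of 10 genes (median 0.50), with sums of 714, 926 and 897 TPM after PBS and 987, 1011 and 1632 TPM after DT. No choroid plexus or ependymal marker passed the test. The part of these cells in the rise of *Ggta1* was not tested.

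The ratio of *Ggta1* to each of the other 6 genes was taken within each library, which is independent of depth. On the log2 scale the ratio to *Srgn* was 0.94, 0.44 and 0.38 in the PBS libraries and 1.90, 1.68 and 1.94 in the DT libraries. The shift was 1.26, and the groups did not overlap. The ratios to *Fbln5* (shift 0.997), *Fkbp5* (shift 0.86) and *Amigo2* (shift 0.85) did not overlap between the groups either. Against *Gbp2* the shift was 0.58, from -0.17 ± 0.43 to 0.40 ± 0.23 (SD, n = 3), and the groups overlapped. Against *Iigp1* it was 1.10, and the groups overlapped. Over these 6 pairs the exact permutation p-value was 0.1 for the 4 without overlap and 0.2 for the others (adjusted p = 0.15 and 0.2). *Ggta1* had already been called as higher in these same libraries, so its higher ratios after DT are a description. The p-values of the ratios are no separate test of its rise. With 3 against 3 libraries no p-value under 0.1 can be reached.

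The genes with the profile most like *Ggta1* over the 6 libraries were *Il13ra1*, *B3gnt5* and *Il1r1*. Likeness was measured as the root mean square difference of log2(CPM + 0.1), each gene centred on its mean, and came to 0.12 for all 3. *Il13ra1*, a receptor chain for interleukin 13, was at 14.9, 12.7 and 17.3 CPM after PBS and 30.2, 27.6 and 31.6 CPM after DT. *Il1r1*, the signalling receptor of interleukin 1, was at 13.5, 9.77 and 10.7 CPM after PBS and 27.5, 27.4 and 24.9 CPM after DT. Since they were chosen for a profile like that of *Ggta1*, their higher values after DT are a description. *B3gnt5*, another glycosyltransferase and also a gene of the A2 list, was read 22 to 67 times per library. Among 19 tested genes of a list around the galactose and sialic acid caps of glycans, *Ggta1* itself left out, none passed the test. *B3gnt5* is in this list and had its highest log2 fold change, 1.05 (adjusted p = 0.183 from limma, 0.0220 with edgeR's exact test). The median log2 fold change of the 19 genes was 0.09, beside -0.01 over all genes tested. The most abundant of them, the sialyltransferase *St3gal4*, was at 92.3 ± 10.7 CPM after PBS and 87.6 ± 3.82 CPM after DT (SD, n = 3).

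**Figure D2:**
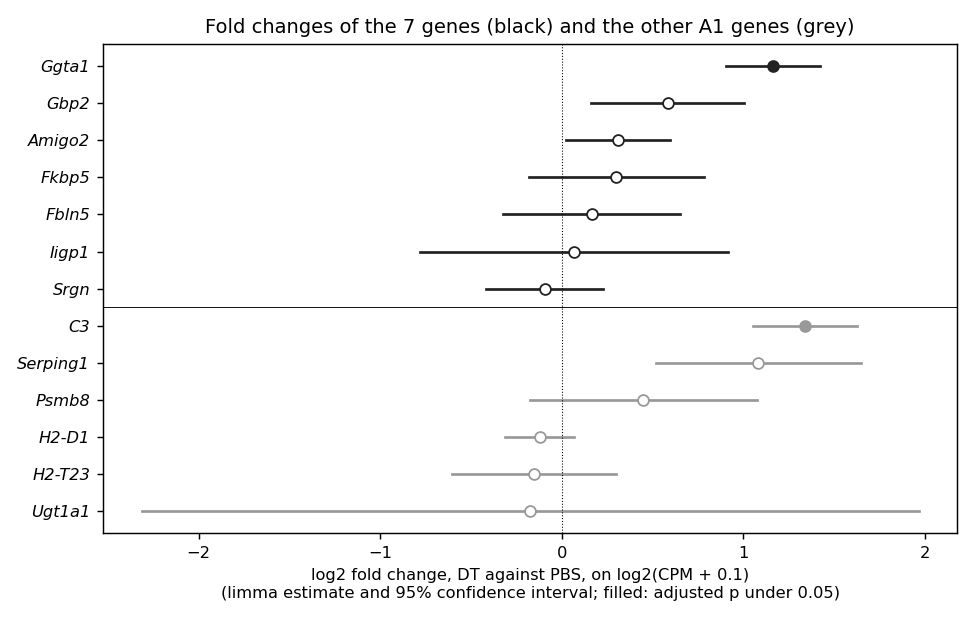
Log2 fold changes, DT against PBS, of the 7 genes (black) and of 6 other genes of the A1 list (grey), with 95% confidence intervals from limma; filled points have an adjusted p-value under 0.05. *Ggta1* (1.16) and *C3* (1.34) are filled, the intervals of *Gbp2* and *Amigo2* stay above 0 without adjustment, and the interval of *Iigp1* runs from -0.78 to 0.91.

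*Gbp2* encodes a guanylate-binding protein, a large GTPase that acts against microbes inside cells and is a classical target of interferon gamma. It lies on the plus strand of chromosome 3 of mm10, from 142620602 to 142638008, within a cluster of related genes, and reads could be split among such paralogs. From the promoter table of RefSeq (GRCm38.p6), 8 promoters of 6 of the 7 genes were used, with 250 bases before and 50 bases after the start. No promoter of *Iigp1* was searched, so the motif counts leave this gene out. Both strands were searched for a GAS motif (TTCNNNGAA), for the core of the interferon-stimulated response element, ISRE (GAAANNGAA), for an NF-kappa B site and for a glucocorticoid response element. The ISRE core was found in 3 of the 8 promoters, those of *Gbp2*, *Srgn* and *Fbln5*, the latter pair each in 1 of 2 promoters, and in 8.56% of all 32851 promoters. The other motifs were in none of the 8, against 8.30%, 4.51% and 0.475% of all promoters. The stretch from 150 to 41 bases before the start is shown for *Gbp2*, at chr3:142620513-142620622 on the plus strand, where the capitals mark the ISRE core read on the opposite strand, and for *Ggta1*, at chr2:35461490-35461599 on the minus strand, which holds no match. They are given as the promoters of both genes with the greatest fold changes of the 7.
Gbp2: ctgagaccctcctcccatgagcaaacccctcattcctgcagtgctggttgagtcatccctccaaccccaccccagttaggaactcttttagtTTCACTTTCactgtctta
Ggta1: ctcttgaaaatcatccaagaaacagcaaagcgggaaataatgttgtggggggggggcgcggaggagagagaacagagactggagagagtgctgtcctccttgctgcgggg
Both distances count from the RefSeq start used in the promoter table, which differs from the GENCODE start behind the gene coordinates given here. The match in *Gbp2* begins 58 bases before the RefSeq start, at 142620605 to 142620613, which is inside the gene as GENCODE draws it, and 21 of the 110 bases shown lie in a GENCODE exon. The stretch of *Ggta1* also lies inside its GENCODE gene, with 0 bases in an exon. A match is a description of letters, not of a bound site.

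In the PBS libraries *Gbp2* was at 19.7, 26.05 and 31.1 CPM, and in the DT libraries at 35.4, 32.6 and 46.8 CPM, from 428 to 1073 reads per library. The groups did not overlap, but the highest PBS library and the lowest DT library were close. Group means were 25.6 ± 5.73 CPM for PBS and 38.3 ± 7.52 CPM for DT (SD, n = 3). This difference of 0.58 on the log2 scale (standard error 0.18, 95% confidence interval 0.16 to 1.004), a ratio of 1.499, did not pass the test (adjusted p = 0.328 from limma, between 0.0684 and 0.627 over 18 other settings). Within groups the coefficient of variation was 22.4% and 19.6%, where counting of reads alone would give 3.95% and 3.22%. For genes of 20 to 60 CPM the median coefficient was 7.56% after PBS and 6.78% after DT.

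*Iigp1*, an immunity-related GTPase that marks the vacuoles of parasites for destruction, lies on chromosome 18 of mm10 from 60376027 to 60392634. It was at 5.07, 6.09 and 9.78 CPM in the PBS libraries and at 5.94, 4.65 and 12.6 CPM in the DT libraries. The groups overlapped widely, since each group held a high library and a pair of low ones. DT and PBS differed by 0.07 on the log2 scale, with a standard error of 0.37 (limma, adjusted p = 0.970). The 95% confidence interval ran from a ratio of 0.58 to a ratio of 1.89. The coefficient of variation was 35.6% after PBS and 55.0% after DT, the largest of the 7 genes, where counting alone would give 7.55% and 7.08%. The sign of the fold change of *Iigp1* turned when DT replicate 3 was left out (log2 fold change -0.35) and also without PBS replicate 1 (-0.13) or PBS replicate 2 (-0.003).

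The high library was the same for both GTPases: PBS replicate 3 and DT replicate 3 were the highest of their groups. Of 16 other interferon-inducible GTPase genes tested, 10 had their highest value in replicate 3 of both groups, and 1 in replicate 1 of both. Among all genes tested, 14.8% were highest in replicate 3 of both groups and 16.7% in replicate 1 of both. Among 20 other interferon-stimulated genes tested, 15 were highest in replicate 3 of both groups. These counts were taken after the values had been seen, and whether a number marks a shared experiment is not given in the sources used here. *Ifit1*, an interferon-induced inhibitor of viral RNA, was at 9.35, 10.2 and 12.8 CPM after PBS and at 9.12, 10.1 and 18.4 CPM after DT. With both libraries numbered 3 left out, the log2 fold change of *Gbp2* was 0.58 (adjusted p = 0.311 from limma) and that of *Iigp1* -0.08 (adjusted p = 0.960). The endothelial markers were also highest in replicate 3 of both groups by their sum, with 849, 965 and 1357 TPM after PBS and 723, 755 and 870 TPM after DT. The sum of the mural cell markers was highest there too, with 1310, 942 and 1436 TPM after PBS and 1108, 1230 and 1531 TPM after DT. The part of either cell type in the levels of *Gbp2* and *Iigp1* was not tested.

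Of the 16 interferon-inducible GTPases, 1 rose, none fell and 15 did not pass the test, and the median log2 fold change was 0.28, or 0.085 to 0.36 when 1 library was left out. The gene that rose was *Irgm1*, a regulatory GTPase of the immunity-related family. *Irgm1* was at 22.0, 18.03 and 23.4 CPM after PBS and at 37.5, 41.5 and 34.8 CPM after DT (log2 fold change 0.85 with a standard error of 0.12, limma, adjusted p = 0.0194). It was not called in 4 of 18 other settings. The most abundant, *Gbp7*, was at 49.6 ± 1.93 CPM after PBS and 61.3 ± 1.86 CPM after DT (SD, n = 3), without overlap, and did not pass the test (adjusted p = 0.119 from limma, 0.0229 with DESeq2). *Gbp3*, another guanylate-binding protein, had a log2 fold change of 0.32 and *Gbp4* of -0.33, both with overlap.

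None of 17 genes for interferon receptors, their kinases and transcription factors passed the test, with a median log2 fold change of 0.03. *Nlrc5*, an activator of MHC class I genes, was at 2.07, 3.50 and 3.40 CPM after PBS and 5.41, 6.37 and 5.58 CPM after DT, with no overlap (adjusted p = 0.172). *Irf9*, the DNA-binding part of the complex that reads the ISRE, was at 30.7, 30.02 and 29.0 CPM after PBS and 41.3, 39.6 and 38.2 CPM after DT (log2 fold change 0.41, adjusted p = 0.0578 from limma). *Irf9* was called in 3 of 18 other settings and *Nlrc5* in 2. Both were named after their values had been seen. The kinase *Jak1*, the most abundant of the list, was at 212 ± 8.97 CPM and 217 ± 8.14 CPM (SD, n = 3). Of 20 interferon-stimulated genes outside the GTPases, none passed the test, and their median log2 fold change was 0.08. The most abundant, *Ifit3*, was at 40.6, 41.4 and 38.7 CPM after PBS and at 39.1, 40.6 and 66.6 CPM after DT, so DT replicate 3 alone stood apart. *Cxcl9*, a chemokine induced by interferon gamma, was listed at 0 in every library.

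**Figure D3:**
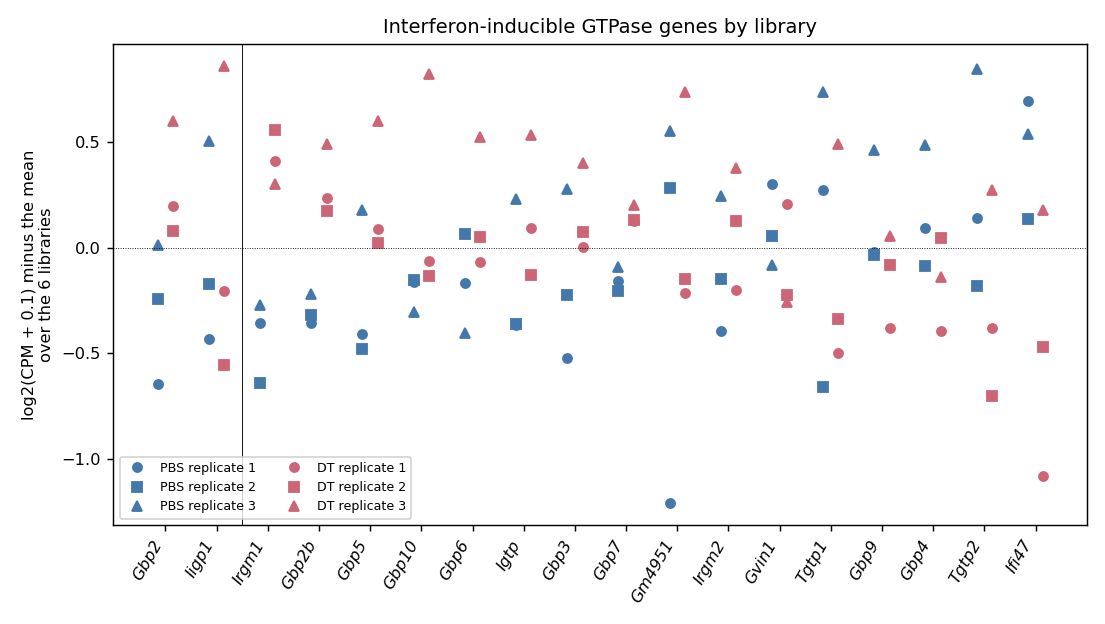
Log2(CPM + 0.1) minus the mean over the 6 libraries for *Gbp2*, *Iigp1* and 16 other interferon-inducible GTPase genes, in 3 PBS (blue) and 3 DT (red) libraries with symbols for the replicate number. Triangles, replicate 3, are the highest point of both groups in *Gbp2*, in *Iigp1* and in 10 of the 16 other genes.

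*Srgn* encodes serglycin, the core protein to which blood and endothelial cells attach chondroitin sulfate or heparin chains for their granules and secretion. It lies on the minus strand of chromosome 10 of mm10 from 62493833 to 62527451. In the PBS libraries it was at 12.8, 14.05 and 18.1 CPM, and in the DT libraries at 14.05, 14.3 and 13.4 CPM. The DT libraries lay within the range of the PBS libraries, and PBS replicate 3 stood highest. On the log2 scale the difference was -0.09 with a standard error of 0.14 (limma, adjusted p = 0.866), and the 95% confidence interval ran from a ratio of 0.75 to a ratio of 1.17. Without PBS replicate 3 it was 0.05. The coefficient of variation was 18.6% after PBS but 3.28% after DT, where counting alone would give 5.18% and 5.34%.

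*Srgn* is known from endothelial cells and cells of the blood lineage, so markers of those cells are given beside it. Among 13 endothelial markers all had log2 fold changes below 0, with a median of -0.39, and none passed the test. Within the PBS group, both the endothelial sum and *Srgn* were highest in replicate 3. Within the DT group, the endothelial sum was again highest in replicate 3 (870 TPM), where *Srgn* was lowest (13.4 CPM). Of 15 microglia markers 9 passed the test as lower after DT, and of 8 border-associated macrophage markers tested 3 passed it as higher. Markers of T cells and NK cells were all under the filter, and of 9 listed markers of monocytes and neutrophils 6 were at 0 in every library. The part of these cells in the level of *Srgn* was not tested. Of 18 tested genes that build chondroitin sulfate chains, none passed the test, and their log2 fold changes lay between -0.19 and 0.13. The sulfotransferase *Chst11* was the most abundant, at 153 ± 3.12 CPM after PBS and 165 ± 6.52 CPM after DT (SD, n = 3).

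*Amigo2* encodes a leucine-rich repeat protein of the cell surface that binds its own kind and is known from neurons of hippocampal area CA2 as well as astrocytes. It lies on the minus strand of chromosome 15 of mm10 from 97244125 to 97247287, inside a gene of the opposite strand, *Pced1b*. It was at 15.7, 16.5 and 14.4 CPM in the PBS libraries and at 19.7, 16.5 and 21.9 CPM in the DT libraries. The groups did not overlap, but nearly met, since DT replicate 2 stood at 16.48 CPM and PBS replicate 2 at 16.46 CPM. *Amigo2* differed by 0.31 on the log2 scale (standard error 0.13, 95% confidence interval 0.02 to 0.60) and did not pass the test (adjusted p = 0.449 from limma). *Pced1b* was at 2.81 to 4.13 CPM after PBS and 3.18 to 4.36 CPM after DT, and mapping used the strand of reads. None of 23 related adhesion genes passed the test, with a median log2 fold change of -0.04. The paralog *Amigo1* had a log2 fold change of -0.09 and *Amigo3* of 0.16. *Lrig1*, a regulator of growth factor receptors and the most abundant of them, was at 440 ± 45.4 CPM after PBS and 569 ± 56.0 CPM after DT (SD, n = 3, adjusted p = 0.188). *Lrig1* was called in 3 of 18 other settings, among them DESeq2 (adjusted p = 0.0143) and quantile normalization (limma, adjusted p = 0.0453).

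*Fbln5* encodes fibulin 5, which binds elastin and integrins and is needed to build elastic fibres. It lies on the minus strand of chromosome 12 of mm10 from 101746565 to 101819055, and was the least abundant of the 7 genes per length. It was at 6.31, 3.92 and 6.16 CPM in the PBS libraries and at 6.20, 5.30 and 6.59 CPM in the DT libraries, from 130 to 163 reads per library. Both groups covered much the same range, with PBS replicate 2 as the lowest library. DT exceeded PBS by 0.17 on the log2 scale, with a standard error of 0.21 (limma, adjusted p = 0.840) and a 95% confidence interval from a ratio of 0.80 to a ratio of 1.57. Without PBS replicate 2 it was -0.05. Of 22 tested genes of elastic fibres and fibulins, none passed the test, 11 were above 0 and 11 below, and the median was 0.02. *Ltbp1*, which anchors latent TGF-beta to the matrix, was the most abundant, at 110 ± 8.28 CPM after PBS and 102 ± 7.005 CPM after DT (SD, n = 3).

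*Fkbp5* encodes an immunophilin that binds Hsp90, lowers the affinity of the glucocorticoid receptor for its hormone and is itself a target of that receptor. It lies on the minus strand of chromosome 17 of mm10 from 28399094 to 28517527, where small non-coding genes of both strands overlap it. It was at 4.37, 6.09 and 5.88 CPM in the PBS libraries and at 5.63, 6.11 and 8.59 CPM in the DT libraries, from 95 to 202 reads per library. The groups overlapped, and DT replicate 3 was the only library that stood clearly above the others. The difference on the log2 scale was 0.30 with a standard error of 0.21 (limma, adjusted p = 0.670), and 0.12 without DT replicate 3. The 95% confidence interval ran from a ratio of 0.88 to a ratio of 1.72. Of 19 genes for the glucocorticoid receptor, the mineralocorticoid receptor and their targets, none passed the test, 8 were above 0 and 11 below, and the median was -0.08. *Tsc22d3*, a widely used readout of the receptor known as GILZ, was at 172, 103 and 132 CPM after PBS and 106, 91.9 and 110 CPM after DT, with overlap. *Mt1*, a metallothionein and the most abundant of them, was at 768 ± 66.5 CPM after PBS and 873 ± 9.38 CPM after DT (SD, n = 3, adjusted p = 0.417 from limma). Groups did not overlap for 5 of the 19 genes, *Mt1* among them, each higher after DT. Of all genes tested, 8.75% did not overlap with DT above PBS. None of 18 other FKBP and Hsp90 co-chaperone genes passed the test, and their log2 fold changes lay between -0.16 and 0.27. The most abundant, the chaperone *Hsp90ab1*, was at 1440 ± 75.3 CPM after PBS and 1569 ± 122 CPM after DT (SD, n = 3).

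Over the 7 genes, 6 had log2 fold changes above 0, beside 48.7% of all genes tested, and the median was 0.30 beside -0.01. Groups did not overlap for *Ggta1*, *Gbp2* and *Amigo2*, 3 of 7 and each higher after DT. Of all genes tested, 16.3% did not overlap between the groups and 8.75% did so with DT above PBS. The unadjusted p-value was under 0.05 for the same 3 genes, and for 10.4% of all genes tested. The summed level of the 7 genes was 124 ± 18 TPM after PBS and 166 ± 17.6 TPM after DT (SD, n = 3).

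The other genes of the A1 list were 6, all tested. Of these *C3*, the central complement protein, rose (log2 fold change 1.34, adjusted p = 0.00214 from limma) and the other 5 did not pass the test, with a median of 0.17 over the 6, and 0.07 to 0.60 when 1 library was left out. Their most abundant gene, the MHC class I heavy chain *H2-D1*, had a log2 fold change of -0.12. In the pan-reactive list 6 of 13 genes rose, with a median log2 fold change of 1.75 (1.51 at a pseudocount of 0.5 and 1.13 at a pseudocount of 1), and in the A2 list 2 of 12, with a median of 0.70. The genes that rose were *Timp1*, *Cd44*, *Osmr*, *Serpina3n*, *Aspg* and *Gfap* of the former, and *Stat3* and *Tgm1* of the latter. *Stat3* was not called in 1 of 18 other settings. *Tgm1* was called in 10 of the 17 other settings that tested it, and rested on 2, 7 and 0 reads in the PBS libraries. Whether these lists differ from the 7 genes was not tested, and a list with *Timp1* at 0 in every PBS library holds a fitted value that is no bound.

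Of the signals known to induce A1 genes in culture and their receptors, 9 of 10 genes were tested, *Il1r1* and *Tnfrsf1a* rose and none fell, while 6 of the 9 had log2 fold changes below 0 and the median was -0.22. *Tnfrsf1a* was not called in 1 of 18 other settings, without the variance trend (adjusted p = 0.0726 from limma). *Il1a*, the gene of interleukin 1 alpha, was at 0.60, 0.87 and 1.15 CPM after PBS and 0.13, 0.71 and 0.65 CPM after DT. *Tnf* was at 0, 0.27 and 0.73 CPM after PBS and 1.61, 1.79 and 1.40 CPM after DT, without overlap, and did not pass the test (adjusted p = 0.270 from limma). *C1qa* was at 6.17, 6.69 and 10.7 CPM after PBS and 6.42, 5.23 and 5.97 CPM after DT, with overlap. The ligand genes stood at low levels in these libraries. Since microglia had been removed with anti-CD11b beads, these levels do not show how much of the signals was present in the tissue. Whether the astrocytes met these signals was not tested. The receptor *Tnfrsf1a* stood at 28.8 ± 4.45 CPM after PBS and 58.7 ± 3.10 CPM after DT (SD, n = 3).

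**Figure D4:**
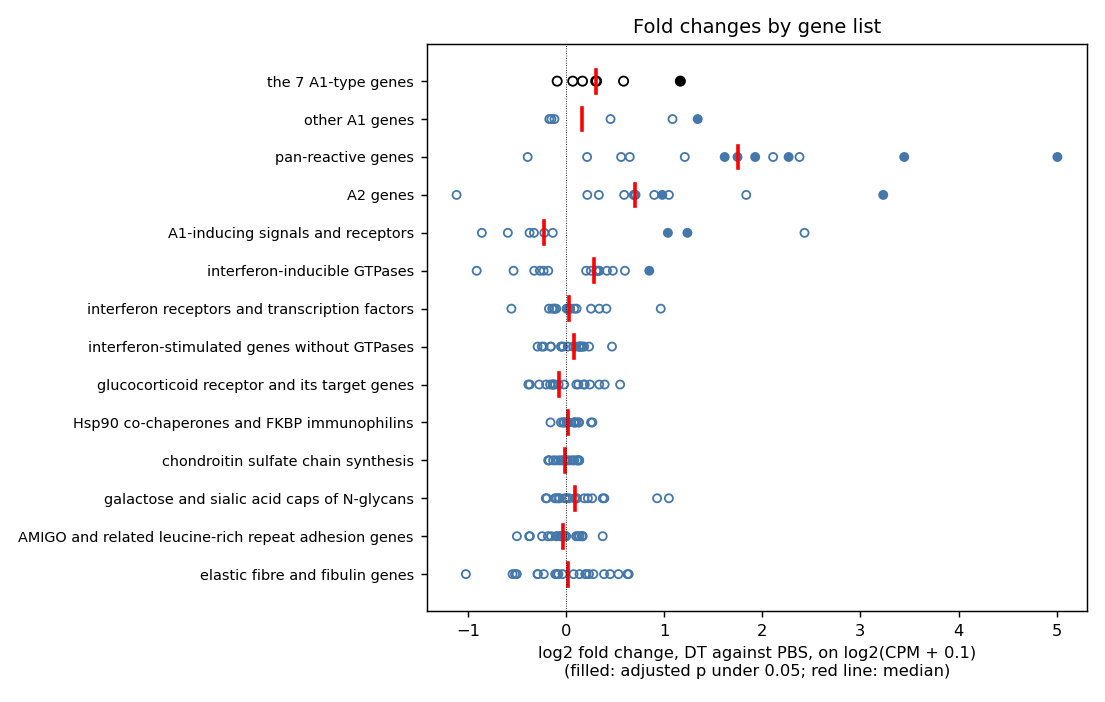
Log2 fold changes, DT against PBS, of the 7 genes and of 13 gene lists, 1 point per gene tested, filled where the adjusted p-value was under 0.05; red lines mark medians. The 7 genes have a median of 0.30 with 1 filled point, the pan-reactive genes a median of 1.75 with 6 filled points; the rightmost point is *Timp1*, listed at 0 in every PBS library, so its position depends on the pseudocount.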

How the data were processed

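Per the labels and the study's methods, reads were trimmed with Trim Galore 0.5.0, mapped to mm10 with HISAT2 2.1.0, freed of rDNA reads with bedtools 2.25.0 and quantified with StringTie 1.3.5, and edgeR 3.24.3 was used. The authors deposited CPM, a signal scaled to adjusted library sizes that summed to between 980428 and 1026170 per library, and TPM. Columns with the authors' own fold changes and their p- and q-values were left unused.

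CPM values were whole multiples of 1 read (tolerance 0.1 read) in 100% of cases, so reads were recovered. The comparison had been planned for plain CPM and was run on the deposited values: limma 3.58.1 (R 4.3.3, variance trend) was fitted to log2(CPM + 0.1) where the mean was 0.5 CPM or more. Alternatives are named in the closing section. edgeR 4.0.16 and DESeq2 1.42.0 were run on the recovered reads. The tests were tested on simulated data. Exact tests used scipy 1.17.1. Locations are those of GENCODE M21 on mm10. The members and lists were chosen with earlier results of these data known. Named are the 7 genes, for each list its called genes and its most abundant one, and the 3 genes most like a called member. Markers were given mainly as sums. Genes outside this rule were named for their role, after their values had been seen. No 2 replicates agreed within sampling noise.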

Additional observations from a re-analysis of the deposited data

How the results depend on the processing

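Each of 17 planned settings and 1 added after the values had been seen called *Ggta1* and no other of the 7 genes. The settings were pseudocounts of 0.5 and 1, no filter or one at a mean of 2 CPM, values in TPM, quantile-normalized values, a fit without the variance trend, a replicate block, 3 count models, each library left out, and both libraries numbered 3 left out.

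Genes higher and lower after DT numbered 84 and 24, and 35 and 11 without the variance trend, 185 and 73 with edgeR's exact test, 227 and 98 with DESeq2 and 45 and 13 without both libraries numbered 3. With each library left out, 39 to 72 genes were higher and 9 to 20 lower; 39 were higher without DT replicate 1 and 40 without DT replicate 2, and 11, 9, 10 and 10 lower without PBS replicates 1, 2 and 3 and DT replicate 2. Fewer samples entered these fits; otherwise the cause was not tested.

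Among the 7 genes, the log2 fold changes that turned sign were those of *Iigp1* (-0.348 to 0.36 over the fits without 1 library), *Fbln5* (-0.053 to 0.283) and *Srgn* (-0.199 to 0.051), none of them called. Without both libraries numbered 3, *Srgn* was at 0.078 and *Iigp1* at -0.079.

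Deviations of libraries with the same number from their group means correlated at 0.115, 0.0105 and 0.118, not all over 0.1, the threshold set for pairing. The values for numbers 1 and 3 were the highest between any PBS and DT library. PBS replicate 2 correlated about equally with DT replicate 1 (0.0107) and DT replicate 2. These values cannot decide whether the numbers pair the samples, and the main fit was left without pairs. In a fit with the replicate block, calls numbered 79 higher and 30 lower, and *Gbp2* had an adjusted p-value of 0.0876 (limma). The block changed no call among the 7 genes; *Lrig1* was called with it (adjusted p = 0.0207, limma). With 3 libraries per group, p-values rest on the spread between these few pools, and those of limma also on a variance estimate shared over all genes tested. Reads of 95 to 202 per library for *Fkbp5* and 130 to 163 for *Fbln5* limit those genes most.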

Other observations

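The library with the highest value was also counted for other lists, after the values had been seen. Of 18 FKBP and Hsp90 co-chaperone genes tested, 8 had their highest value in replicate 3 of both groups, beside 14.8% of all genes tested, and 10 did not. Among the 8 were *Hsp90aa1* and *Hsp90ab1*, the cytosolic Hsp90 chaperones, *Stip1*, which links Hsp70 to Hsp90, and *Ptges3*, the co-chaperone p23. Of 23 leucine-rich repeat adhesion genes tested, 8 were highest in replicate 1 of both groups, beside 16.7% of all genes tested. What the numbers mark was not tested.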
